A study of Mus musculus with 2 samples.

Results

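The 8 genes described here encode enzymes of heme synthesis, and they were read in a single CITE-seq experiment on mouse fetal liver. They were chosen by name (*Alas1*, *Alas2*, *Alad*, *Uros*, *Urod*, *Cpox*, *Ppox* and *Fech*) from the 27998 genes of the count table, by a rule that uses no measured value, although earlier results of these data were known when it was set. CITE-seq sequences the RNA of single cells together with DNA barcodes carried by antibodies, so that each cell has both transcript counts and surface protein counts. The cells came from livers of C57BL/6 embryos at e13.5, from which part of the Ter119-positive cells had been removed beforehand. No cell was treated or genetically altered, and there was 1 cDNA library with its antibody library, so differences between cells have a counting error but no replicate error and no test was possible.

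Populations were defined by the surface counts of Ter119, a marker of maturing red cells, and CD71, the transferrin receptor, neither of which is a heme synthesis enzyme. Of 7863 cells, 7244 passed the quality limits, 6424 of these carried few lineage antibodies, and 6210 fell into 6 populations in order of maturity. S0-low held 1510 cells with low Ter119 and low CD71, S0-medium 1054 cells with intermediate CD71, and S1 612 cells with high CD71. S2 held 1298 cells with intermediate Ter119, S3 853 cells with high Ter119 and high CD71, and S4/S5 883 cells with high Ter119 and lower CD71. The 14 erythroid markers found in the gene list were all detected in each population, at summed levels from 13319 CPM (defined below) in S0-low to 635029 in S4/S5. The sum includes adult globin genes. Hepatocyte-, megakaryocyte-, macrophage- and stromal-like cells together held 14922 CPM, so these markers do not set S0-low apart. Detection alone does not either, since all 12 hepatocyte markers were also detected in each population. The median depth per cell ranged from 3943 unique molecular identifiers (UMIs, each counting 1 captured RNA) in S4/S5 to 10282 in S0-medium. Globin genes took 1.05% of the UMIs in S0-low, 13.1% in S2, 37.9% in S3 and 64.1% in S4/S5, which lowers the share left for every other gene.

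Heme is made from glycine and succinyl-CoA in a chain of reactions that starts in the mitochondrion, passes through the cytosol and returns to the mitochondrion, where iron is inserted. The first and rate-limiting step is made by 5-aminolevulinate synthase, of which *Alas1* encodes the form found in most tissues and *Alas2* the erythroid form. In red cell precursors the pathway supplies the heme of hemoglobin, and *Alas2* mRNA carries an iron-responsive element that ties its translation to iron. The 8 genes cover 7 steps of the pathway, since both *Alas* genes serve the same step, and the remaining step is not analysed here. Levels below are means over cells of UMIs of a gene per 1000000 UMIs of the cell (CPM), with 95% intervals for counting error only. The library reads 3′ ends, so 1 UMI stands for 1 transcript whatever its length, and transcripts may still differ in how well they are captured.

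The gene list named the members as ENSMUSG00000032786 (*Alas1*), ENSMUSG00000025270 (*Alas2*), ENSMUSG00000028393 (*Alad*), ENSMUSG00000030979 (*Uros*), ENSMUSG00000028684 (*Urod*), ENSMUSG00000022742 (*Cpox*), ENSMUSG00000062729 (*Ppox*) and ENSMUSG00000024588 (*Fech*). In the 7244 kept cells they held between 732 UMIs (*Alas1*) and 42360 UMIs (*Fech*). *Cpox*, with 40490 UMIs, and *Alad*, with 31755, were counted more often than *Alas2*, with 23680, and *Uros* and *Ppox* were sparse, with 4790 and 4022.

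The promoter windows of the *Alas* isozymes are shown because these genes moved in opposite directions, and those of *Cpox* and *Uros* because they are the other members with a GATA motif. Each window runs from 250 bases before an annotated start to 50 bases after it, from RefSeq on GRCm38.p6. Capitals mark matches on either strand to GATAA, the core read by GATA factors, or to CCNCNCCC, the CACCC-type motif read by KLF factors. Windows were given for 7 members, 10 windows in all. *Alas2* lies at chrX:150547167-150547466 on the plus strand, the first window of *Alas1* at chr9:106247905-106248204 on the minus strand, *Cpox* at chr16:58669958-58670257 on the plus strand, and the second window of *Uros* at chr7:133702451-133702750 on the minus strand.
Alas2: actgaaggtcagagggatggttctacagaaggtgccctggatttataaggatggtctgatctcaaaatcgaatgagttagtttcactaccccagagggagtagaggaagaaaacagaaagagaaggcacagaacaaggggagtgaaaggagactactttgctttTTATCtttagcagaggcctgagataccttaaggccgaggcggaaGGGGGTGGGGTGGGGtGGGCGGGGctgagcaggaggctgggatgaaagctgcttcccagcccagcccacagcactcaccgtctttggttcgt
Alas1: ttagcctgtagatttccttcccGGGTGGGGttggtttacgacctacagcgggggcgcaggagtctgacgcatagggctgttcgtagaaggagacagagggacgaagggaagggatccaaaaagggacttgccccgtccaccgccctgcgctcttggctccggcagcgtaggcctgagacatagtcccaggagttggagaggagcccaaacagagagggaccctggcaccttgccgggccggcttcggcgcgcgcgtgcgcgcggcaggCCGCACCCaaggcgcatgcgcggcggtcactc
Cpox: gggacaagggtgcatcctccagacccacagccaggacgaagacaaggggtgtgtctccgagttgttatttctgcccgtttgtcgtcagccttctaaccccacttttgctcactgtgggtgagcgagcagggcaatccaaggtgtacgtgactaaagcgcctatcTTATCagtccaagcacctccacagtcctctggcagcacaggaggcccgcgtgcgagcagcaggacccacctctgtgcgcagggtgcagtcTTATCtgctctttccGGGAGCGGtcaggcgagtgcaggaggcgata
Uros: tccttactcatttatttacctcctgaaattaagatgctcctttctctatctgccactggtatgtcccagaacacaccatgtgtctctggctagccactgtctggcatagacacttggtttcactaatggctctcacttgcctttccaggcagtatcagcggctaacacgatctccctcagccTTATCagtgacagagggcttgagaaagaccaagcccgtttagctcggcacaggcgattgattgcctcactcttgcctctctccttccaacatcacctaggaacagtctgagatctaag

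GATAA was found in 3 of the 10 windows and CCNCNCCC in 9, against 25.4% and 49.5% of the 32851 windows of all genes. In *Alas2* the GATAA match begins at base -86 from the start and is followed by 4 CCNCNCCC matches between -42 and -26, the first 3 of which overlap. *Cpox* has GATAA matches at -86 and 5, and *Uros* has 1 at -68 in its second window and none in its first. *Alas1*, *Alad*, *Urod* and *Ppox* have no GATAA in these windows and at least 1 CCNCNCCC each. The windows of *Alas1* overlap each other, as do those of *Alad*, so some of their matches are the same bases. These matches describe letters, not bound sites, and 3′ reads do not show which start a transcript used.

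**Figure D1:**
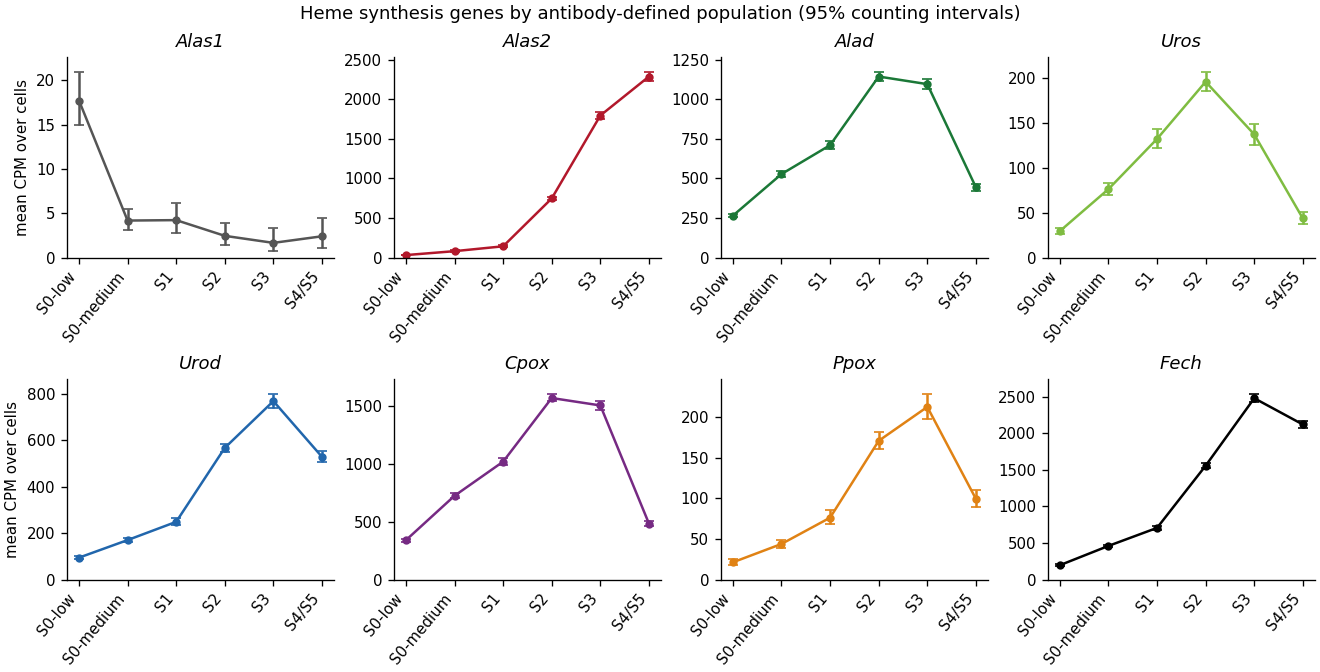
Mean CPM over cells of each heme synthesis gene (y axes start at 0 and differ between genes) in the 6 populations from S0-low to S4/S5; points are means and bars 95% counting intervals. *Alas1* is highest in S0-low, *Uros*, *Alad* and *Cpox* are highest in S2, *Urod*, *Ppox* and *Fech* in S3, and *Alas2* in S4/S5.

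*Alas2*, the erythroid form of the rate-limiting enzyme, rose the most of the 8 genes. S0-low held 30.9 CPM, S0-medium 80.4, S1 142, S2 748, S3 1796 and S4/S5 2289, a rise at each of the 5 steps. From S0-low to S3 it rose 58.2-fold (50.5 to 67.4), over an S0-low level that cells outside the red cell lineage also held on this scale. The largest single step was from S1 to S2, 5.27-fold (4.77 to 5.83), followed by S2 to S3, 2.40-fold (2.31 to 2.5). After each cell was thinned to 2000 UMIs, 4.44% of S0-low cells, 17.8% of S1 cells, 61.5% of S2 cells and 91.7% of S3 cells had an *Alas2* UMI. Without thinning these shares were 13.4%, 46.9%, 86.2% and 98.5%.

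The *Alas2* level of S0-low lay close to that of cells outside the red cell lineage, and which was higher depended on the scale. The 425 hepatocyte-, megakaryocyte-, macrophage- and stromal-like cells, which should lack the erythroid isozyme, held 36.6 CPM (30.3 to 43.8) and a thinned share of 4.47% (20.0% without thinning). By type the level was 28.6 CPM in hepatocyte-like, 24.7 in megakaryocyte-like, 54.3 in macrophage-like and 56.0 in stromal-like cells. The last 2 types also carried more Ter119, at medians of 73 and 46 counts against 8.50 and 9. The source of *Alas2* in these types was not tested. The median depth of the 425 cells was 8517 UMIs, against 6146 in S0-low. In CPM S0-low over these cells gave 0.843 (0.668 to 1.07), within counting error. It was 1.35 (1.03 to 1.76) without globin UMIs and 0.494 (0.404 to 0.606) in UMIs per cell, so no excess held on all 3 scales. The 425 cells were taken by cluster, so some of them also lie in S0-low. With the clusters named as non-erythroid left out of S0-low, the ratio was 1.04 (0.817 to 1.33) in CPM. It was then 1.78 (1.34 to 2.35) without globin UMIs and 0.576 (0.467 to 0.712) in UMIs per cell. In S0-medium the ratio to the 425 cells was 2.20 (1.78 to 2.73) in CPM and 3.46 (2.76 to 4.36) without globin UMIs. In UMIs per cell it was 1.2 (0.9998 to 1.45), within counting error. The thinned share of S0-medium was 9.01% (7.35 to 10.9), and its median cell held 0 CPM. Globin took 1.39% of S0-medium UMIs, yet leaving it out moved the *Alas2* mean from 80.4 to 140 CPM. Cells rich in globin thus weigh in this mean, and their part in the ratio was not tested. Per 1000 UMIs of the adult α-globin genes *Hba-a1* and *Hba-a2*, *Alas2* held 9.48 (8.38 to 10.7) in S0-low, 9.70 (7.60 to 12.2) in hepatocyte-like cells and 11 (6.74 to 17.0) in megakaryocyte-like cells. It held 16.2 (15.8 to 16.7) in S2, 16.9 (16.5 to 17.3) in S3 and 15.1 (14.8 to 15.4) in S4/S5. The ratio of *Alas2* to α-globin thus moved by less than 2-fold across populations while both rose steeply.

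*Alas1*, the form that serves most tissues, went the other way. S0-low held 17.7 CPM, S0-medium 4.17, S1 4.22, S2 2.45, S3 1.66 and S4/S5 2.40. These values rest on 198, 56, 30, 25, 10 and 12 UMIs, and from S0-medium to S4/S5 no neighbouring pair differed beyond counting error in CPM. Under other settings some pairs did. For example, in UMIs per cell S2 was lower than S1, at 0.393 (0.222 to 0.691), and populations drawn by the centered log ratio within each cell put S1 below S0-medium, at 0.549 (0.366 to 0.820). The fall from S0-low to S0-medium was 4.25-fold (3.06 to 5.99). Under the alternative settings S0-medium held between 0.126 and 0.572 of the S0-low level, so a fall of 2-fold did not hold under all. *Alas1* was 0.0934 (0.0392 to 0.190) of its S0-low level in S3. Since 71.0% of all genes tested were at least 2-fold lower in S3 than in S0-low, this fall alone does not set *Alas1* apart.

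Most *Alas1* UMIs of S0-low lay in cells that were not erythroid by their clusters. Clusters were made without the 8 genes and named from marker genes. The 454 S0-low cells (30.1%) in named non-erythroid clusters held 136 of 198 *Alas1* UMIs, or 68.7% (61.7 to 75.1, exact Clopper-Pearson). The same cells held 4.52% of the *Cpox* UMIs, 7.21% of *Alad*, 9.43% of *Fech* and 18.4% of *Alas2*. Without them *Alas1* in S0-low was 7.24 CPM (5.26 to 9.72), and S3 was 0.229 (0.0921 to 0.494) of that. S0-medium held 4.17 CPM (3.10 to 5.51), so this first step was then less than 2-fold and the intervals overlap. All 12 hepatocyte markers and all 15 myeloid markers were detected in S0-low, at summed levels of 8322 and 896 CPM. Without the named clusters these sums were 311 and 182 CPM, against 521 to 887 and 93.4 to 252 in the other 5 populations.

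The highest *Alas1* level, 208 CPM (145 to 289), was in the 41 myeloid-like cells led by the neutrophil granule genes *Ngp*, *Camp* and *S100a9*. The 659 myeloid-like cells that also carried early progenitor genes such as *Cd34* and *Plac8* held 74.7 CPM (66.3 to 83.8). Hepatocyte-like cells, of a cell type that relies on *Alas1* for heme, held 39.4 CPM (30.4 to 50.2), stromal-like cells 33.6 (18.3 to 56.6), macrophage-like cells 23.2 (9.55 to 47.2) and megakaryocyte-like cells 8.59 (3.16 to 18.7). The intervals of hepatocyte-, stromal- and macrophage-like cells overlap, so their order is not set by these counts.

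Read in the same cells, *Alas1* made up 42.1% (37.6 to 46.7) of the *Alas1* and *Alas2* UMIs in S0-low. The share was 10.8% (8.27 to 13.8) in S0-medium, 4.93% (3.35 to 6.96) in S1, 0.486% (0.315 to 0.717) in S2, 0.139% (0.0665 to 0.255) in S3 and 0.144% (0.0744 to 0.251) in S4/S5. It fell at each step up to S3, and the last 2 populations did not differ beyond counting error. Within a cell depth and globin content cancel in this share, but UMIs were summed over cells, so deeper cells weigh more. In S0-medium the sums were 56 and 462 UMIs, while mean CPM, which weighs cells equally, was 4.17 for *Alas1* and 80.4 for *Alas2*. Without the named non-erythroid clusters the S0-low share was 21.8% (17.2 to 27.1). Such clusters also held 2 of the 10 *Alas1* UMIs of S3 and 5 of the 12 of S4/S5, in 3 cells each. The share was 54.7% (46.6 to 62.5) in hepatocyte-like cells and 63.8% (59.7 to 67.8) in the myeloid-like cells with progenitor genes. Free RNA from other cells can enter these shares, since *Alas2* in S0-low lay close to its level in cells that should lack it. The part of free RNA in them was not tested.

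**Figure D2:**
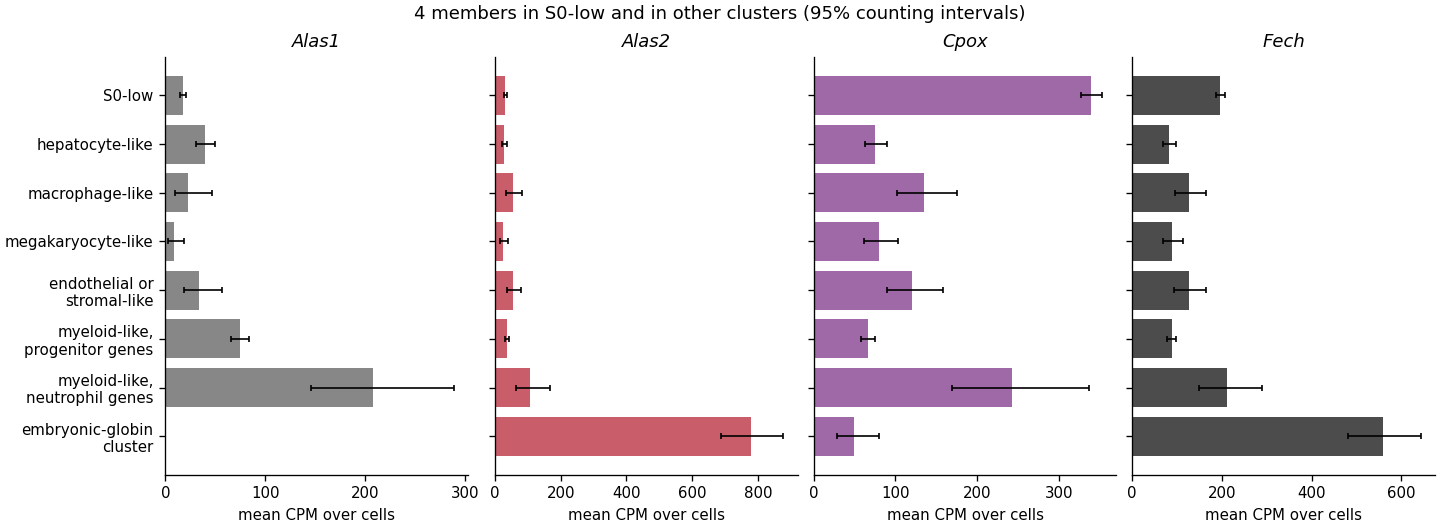
Mean CPM over cells of *Alas1*, *Alas2*, *Cpox* and *Fech* (x axes start at 0 and differ between genes) in S0-low and in 7 clusters named from markers or leading genes; bars are means with 95% counting intervals. *Alas1* is highest in the myeloid-like clusters. It has 0 UMIs in the 73 cells of the embryonic-globin cluster, too few cells to tell this from its level in S4/S5. *Alas2* and *Fech* reach 779 and 558 CPM in that cluster.

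In CPM *Alad*, *Uros* and *Cpox* peaked in S2. *Alad* encodes the cytosolic enzyme that joins 2 molecules of aminolevulinate into porphobilinogen, *Uros* the one that closes the ring with the right side-chain order, and *Cpox* the mitochondrial enzyme that turns coproporphyrinogen into protoporphyrinogen. For *Cpox* the level was 339.5 CPM in S0-low, then 723, 1017, 1566, 1502 and 483 CPM in S0-medium, S1, S2, S3 and S4/S5. *Alad* held 264, 527, 709.6, 1143, 1095 and 444 CPM in the same order. *Uros* held 29.5, 76.4, 132, 196, 137 and 43.6 CPM. All 3 were lower in S3 than in S2 on this scale, by 0.959 (0.929 to 0.991) for *Cpox*, 0.958 (0.923 to 0.994) for *Alad* and 0.70 (0.633 to 0.774) for *Uros*. For *Cpox* and *Alad* that step turned to 1.28 and 1.30 when globin UMIs were left out of the denominator, and *Uros*, at 0.945 (0.847 to 1.05), no longer differed beyond counting error.

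*Cpox*, *Alad* and *Fech* were already higher in S0-low than in the other cell types on all 3 scales. In CPM *Cpox* was 3.59-fold (3.18 to 4.07) and *Alad* 2.61-fold (2.31 to 2.95) the level in the 425 hepatocyte-, megakaryocyte-, macrophage- and stromal-like cells, and *Fech* 1.99-fold (1.76 to 2.26). *Uros* and *Urod* were 1.44-fold (1.08 to 1.94) and 1.23-fold (1.06 to 1.44), but 1.13-fold (0.887 to 1.45) and 1.02-fold (0.895 to 1.15) in UMIs per cell, within counting error. *Ppox*, at 1.09-fold (0.802 to 1.49), did not differ beyond counting error. Some of the 425 cells also lie in S0-low. With the named non-erythroid clusters left out of S0-low, *Uros* and *Urod* were higher on all 3 scales. In UMIs per cell they were then at 1.38-fold (1.08 to 1.78) and 1.24-fold (1.09 to 1.41). *Ppox* still did not differ beyond counting error, at 1.18-fold (0.860 to 1.64) in CPM. After thinning, 42.3% (39.7 to 44.8) of S0-low cells had a *Cpox* UMI against 16.9% of the same 425 cells. The unthinned shares were 68.1% and 49.2%. The myeloid-like clusters are not part of this comparison. The 41 myeloid-like cells held 242 CPM (169 to 336) of *Cpox*, 193 (132 to 272) of *Alad* and 210 (149 to 289) of *Fech*. These intervals overlap those of S0-low. The 659 myeloid-like cells with progenitor genes held 65.9, 67.6 and 87.6 CPM. These enzymes are used in many tissues, so the other cell types are a comparison for them and not a background of free RNA alone.

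*Urod*, *Ppox* and *Fech* rose for longer and, in CPM, peaked in S3. From S0-low to S0-medium they rose by 1.80-, 2.065- and 2.35-fold, against 1.995-, 2.59- and 2.13-fold for *Alad*, *Uros* and *Cpox*. From S0-medium to S1 the values were 1.46-, 1.74- and 1.54-fold, against 1.35-, 1.74- and 1.41-fold. *Urod* encodes the cytosolic uroporphyrinogen decarboxylase, *Ppox* the mitochondrial protoporphyrinogen oxidase, and *Fech* the ferrochelatase that inserts iron into the finished ring. For *Fech* the level was 196 CPM in S0-low, then 459.5, 706, 1556, 2478 and 2119 CPM in S0-medium, S1, S2, S3 and S4/S5. *Urod* held 94.4, 170.2, 249, 568, 769.7 and 529 CPM in the same order, and *Ppox* 21.2, 43.9, 76.3, 171, 213 and 99.5 CPM. All 3 rose by more than 2-fold from S1 to S2, by 2.20 (2.11 to 2.30) for *Fech*, 2.28 (2.14 to 2.44) for *Urod* and 2.24 (1.97 to 2.56) for *Ppox*. From S2 to S3 they still rose, by 1.59-fold (1.55 to 1.64), 1.36-fold (1.29 to 1.42) and 1.24-fold (1.13 to 1.37). In UMIs per cell *Ppox* did not differ between S2 and S3 beyond counting error, at 1.002 (0.920 to 1.09). Without globin UMIs *Fech* was highest in S4/S5, and *Urod* in S3 and S4/S5 did not differ beyond counting error.

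Within a population the cells spread widely. The middle 50% of S3 cells held 996 to 2418 CPM of *Alas2*, 1560 to 3275 CPM of *Fech* and 741 to 2153 CPM of *Cpox*. In S2 the middle 50% of cells held 169.5 to 1067 CPM of *Alas2* around a median of 502, so that S2 mixes cells of low and high *Alas2*. At these depths counting noise enters the spread, and its part was not tested.

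The members were set against all genes at each step. A gene was called where the ratio of means was at least 2 or at most 0.5, among genes with at least 50 UMIs over both populations. From S0-low to S0-medium 5 of 8 members (*Alas2*, *Uros*, *Cpox*, *Ppox* and *Fech*) were at least 2-fold higher, against 1.85% of 9834 genes tested. *Alad*, at 1.995, lay just under the limit. The median ratio was 2.1 over the members and 0.944 over all genes. When cells of named non-erythroid clusters were left out the count fell from 5 to 2, *Alas2* at 2.11 (1.74 to 2.56) and *Uros* at 2.1 (1.78 to 2.48), with *Cpox* at 1.57, against 1.21% of 9020 genes. The other 5 rising members then held ratios between 1.49 and 1.91. Hepatocyte and myeloid markers moved with this step, as given above. Leaving out the named clusters measures the part of those clusters in these ratios, not of other cells.

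From S0-medium to S1 none of the 8 members was called, against 0.450% of 8659 genes. *Alas2*, *Ppox* and *Uros* rose by 1.76-fold (1.53 to 2.04), 1.74-fold (1.48 to 2.05) and 1.74-fold (1.54 to 1.96). The median ratio was 1.5 over the members and 0.918 over all genes. From S1 to S2 4 of 8 members (*Alas2*, *Urod*, *Ppox* and *Fech*) were at least 2-fold higher, against 2.09% of 8217 genes, with medians of 1.91 and 0.733. In UMIs per cell only *Alas2* kept a ratio of 2 or more at this step, at 4.17, with *Urod*, *Ppox* and *Fech* at 1.45, 1.58 and 1.48. On that scale 0.779% of all genes were at least 2-fold higher. The medians were then 1.29 over the members and 0.551 over all genes. From S2 to S3 *Alas2* alone of the 7 members tested was called, against 1.56% of 7610 genes, and *Alas1* had too few UMIs to be tested.

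Across the whole rise, 7 of 8 members were at least 2-fold higher in S3 than in S0-low, against 5.75% of 9409 genes tested. Below *Alas2*, the ratios were 12.7 (12 to 13.4) for *Fech*, 10.0 (8.46 to 11.9) for *Ppox*, 8.16 (7.54 to 8.83) for *Urod*, 4.66 (4.00 to 5.44) for *Uros*, 4.43 (4.23 to 4.63) for *Cpox* and 4.14 (3.94 to 4.36) for *Alad*. The intervals of *Uros*, *Cpox* and *Alad* overlap, as do those of *Urod* and *Ppox*, so these places are not an order. The 7 rising genes kept a ratio of at least 2.70 under each of the 11 alternatives to the populations or the scale, tried one at a time. With the named clusters left out of S0-low and UMIs per cell together, *Alad* was at 2.04 (1.95 to 2.13) and *Cpox* at 2.33 (2.24 to 2.43). The median of all genes was 0.307 in CPM, 0.510 without globin UMIs and 0.264 in UMIs per cell, and 7 of 8 members were called on each. The share of all genes at least 2-fold higher was 5.75%, 10.7% and 3.89% in the same order.

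From S3 to S4/S5 the members parted. *Alas2* rose 1.28-fold (1.23 to 1.32), *Fech* kept 0.855 (0.829 to 0.883) and *Urod* 0.688 (0.648 to 0.730) of their S3 level. *Ppox* kept 0.468 (0.410 to 0.532), *Alad* 0.405 (0.382 to 0.429), *Cpox* 0.322 (0.304 to 0.340) and *Uros* 0.318 (0.263 to 0.381). These 4 of 7 members tested were at least 2-fold lower, but so were 42.4% of 5556 genes, so a fall of this size is close to the background. The median ratio was 0.578 over the 7 members and 0.532 over all genes.

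The denominator changed the reading of this last step. Without globin UMIs *Alas2* rose 1.92-fold (1.85 to 1.99) and *Fech* 1.26-fold (1.22 to 1.30), *Urod* stayed at 1.02 (0.956 to 1.08), and *Ppox* and *Alad* were lower at 0.655 and 0.576. *Cpox* and *Uros* were then the only members at least 2-fold lower, at 0.442 (0.417 to 0.469) and 0.462 (0.378 to 0.561), where 8.03% of all genes were and the median gene was at 0.887. In UMIs per cell *Alas2* was 9.43 in S4/S5 and 8.44 in S3, a ratio of 1.12 (1.08 to 1.15), and *Fech* was 0.728 (0.706 to 0.75). *Alas2* was thus higher in S4/S5 on all 3 scales, and *Fech* changed direction with the scale. The order *Alas2*, *Fech*, *Urod* and then *Ppox* with *Alad* held on all 3. The intervals of *Ppox* and *Alad* overlap on each, so their places are not an order. Fewer transcripts per cell and a smaller share of all RNA cannot be told apart here.

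**Figure D3:**
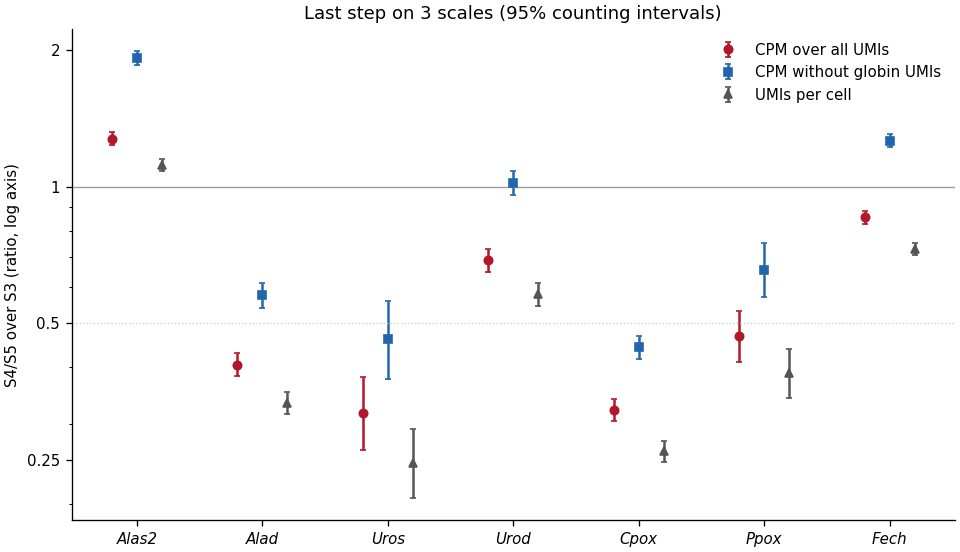
Ratio of S4/S5 over S3 (log axis) for the 7 members with enough UMIs, as CPM over all UMIs (circles), CPM without globin UMIs (squares) and UMIs per cell (triangles), with 95% counting intervals. *Alas2* lies above 1 on all 3 scales, *Fech* lies on either side of 1, and *Alad*, *Uros*, *Cpox* and *Ppox* lie below 1 on all 3.

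To set the order more finely, each population was split into 4 groups of equal size by its own antibody, CD71 in S0-low, S0-medium, S1 and S4/S5 and Ter119 in S2 and S3. Over these 24 groups, *Cpox* first reached 0.5 of its highest level in group 8, the last of S0-medium, *Uros* in group 9 and *Alad* in group 10, both in S1. *Ppox* followed in group 13, *Urod* and *Fech* in group 14 and *Alas2* in group 16, all in S2. In CPM the highest levels came in group 14 for *Uros*, group 16 for *Alad* and *Cpox*, group 17 for *Ppox*, group 18 for *Urod* and *Fech* and group 22, in S4/S5, for *Alas2*. In the last group *Alas2* still held 0.907 of its highest level, *Fech* 0.631 and *Urod* 0.444, while *Ppox*, *Alad*, *Cpox* and *Uros* were at 0.186, 0.176, 0.111 and 0.0987.

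Without globin UMIs all 7 of these genes reached 0.5 of their highest level later, *Uros* in group 12, *Alad* and *Cpox* in group 13, *Urod* and *Ppox* in group 15, *Fech* in group 16 and *Alas2* in group 19. The highest levels were then in group 18, in S3, for *Uros*, *Alad*, *Cpox* and *Ppox* alike, in group 21 for *Urod*, group 22 for *Fech* and group 24 for *Alas2*. *Alas2* reached 0.5 last on both scales, though in CPM only in group 16 against 14 for *Urod* and *Fech*. *Uros*, *Alad* and *Cpox* came first, though without globin UMIs *Alad* and *Cpox* were in group 13 against 15 for *Urod* and *Ppox*. Neighbouring groups often overlap within counting error, as for *Cpox* at 844 CPM (799 to 891) in group 8 and 874 (818 to 933) in group 9, so places 1 or 2 groups apart are not an order. In S0-medium *Alas2* did not rise evenly, with 109 CPM (88.9 to 131) in group 5 and 43.0 (32.1 to 56.4) in group 6.

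**Figure D4:**
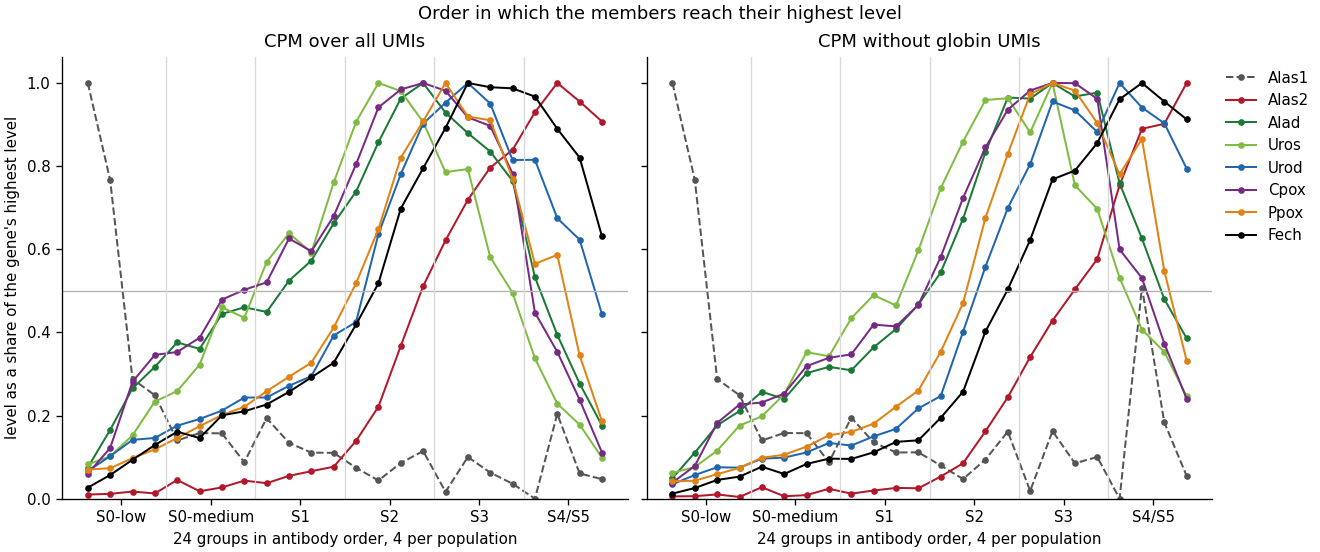
Level of each member as a share of its own highest level (y axis) in 24 groups of cells in antibody order, 4 per population (x axis), for CPM over all UMIs (left) and without globin UMIs (right); *Alas1* is dashed and the grey line marks 0.5. Of the 7 rising genes *Uros*, *Alad* and *Cpox* reach 0.5 first and *Alas2* last in both panels, though some of these places are too close to be an order. On the right *Uros*, *Alad*, *Cpox* and *Ppox* all peak in group 18, and *Alas2* ends at its highest level.

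Likeness between members over the 24 groups is given as Pearson r of log2 CPM and as a description, since the groups share 1 library and one common trend. The r was 0.994 for *Alad* and *Cpox*, 0.948 for *Uros* and *Cpox*, 0.982 for *Urod* and *Fech*, 0.935 for *Alas2* and *Fech* and 0.922 for *Alas2* and *Urod*. *Ppox* lay between, with an r of 0.960 to *Urod*, 0.905 to *Fech*, 0.858 to *Alad*, 0.822 to *Cpox* and 0.816 to *Alas2*. *Alas2* had an r of 0.396 to *Cpox* and 0.309 to *Uros*. *Alas1* had a negative r to each of the other 7 members, from -0.839 with *Fech* to -0.640 with *Alas2*. Its r rests mainly on groups 1 and 2, in S0-low, where its mean was 30.8 and 23.6 CPM. From group 3 on it held 0 to 8.86 CPM, less than the 10 CPM added before the log.

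Among 6338 genes with at least 500 UMIs, the 3 most like *Alas2* were globin genes, *Hbb-bt* with an r of 0.999 and *Hba-a1* and *Hba-a2* with 0.997 each. *Hbb-bt* held 2501 CPM in S0-low and 137151 in S4/S5. The 3 most like *Alas1* were *Cotl1* (0.942), which encodes an actin-binding protein, *Cbfb* (0.940), which encodes the partner of the RUNX factors, and *Srgn* (0.935), which encodes the granule proteoglycan serglycin. *Cotl1* fell from 109 CPM in S0-low to 11.4 in S0-medium and 6.69 in S3, and *Srgn* from 323 to 67.0 and 25.4.

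The make-up of the pathway's UMIs turned over. Of the 11191 UMIs of the 8 genes in S0-low, *Cpox* took 33.2%, *Alad* 28.9%, *Fech* 18.5% and *Alas2* 2.43%. In S4/S5 *Alas2* took 38.1% and *Fech* 34.6%, while *Cpox* took 8.26% and *Alad* 7.80%. *Urod* kept between 8.83% and 10.1% in all 6 populations. Per 1000 UMIs the 8 genes together held 0.964 in S0-low, and 1.84, 2.74, 5.22, 7.35 and 5.77 in the populations that follow.

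**Figure D5:**
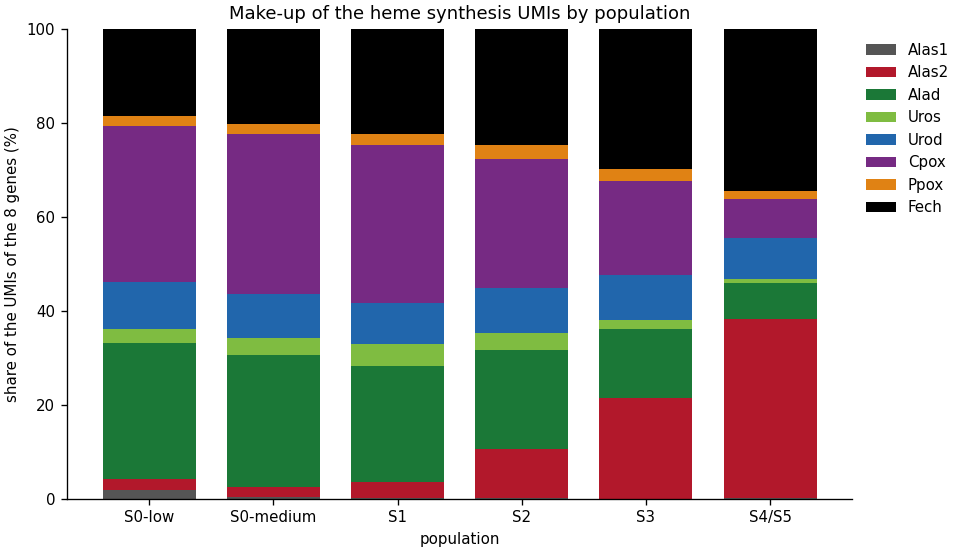
Share of the UMIs of the 8 heme synthesis genes taken by each gene (stacked bars, y axis in percent) in the 6 populations (x axis). *Alas2* and *Fech* grow from 2.43% and 18.5% in S0-low to 38.1% and 34.6% in S4/S5, while *Cpox* and *Alad* shrink.

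A cluster of 73 cells led by the embryonic globin genes *Hbb-y* and *Hba-x* had another balance of the pathway than S4/S5 as a whole, given as a description. It held 779 CPM (688 to 878) of *Alas2* and 558 CPM (481.5 to 643) of *Fech*, but 104 CPM of *Urod*, 53.8 of *Alad*, 49.4 of *Cpox* and no *Alas1* UMI. S4/S5 held only 12 *Alas1* UMIs in 883 cells, so the lack of *Alas1* in 73 cells does not set the cluster apart. Globin genes took 81.7% of the UMIs of the cluster. The 73 cells were taken by cluster, with medians of 128 Ter119 and 300 CD71 counts, so some of them can also lie in S4/S5. The last of the 24 groups, the S4/S5 cells with the lowest CD71, held 2190 CPM of *Alas2* and 1616 of *Fech*. It held 367 CPM of *Urod*, 226 of *Alad* and 186 of *Cpox*. Low *Urod*, *Alad* and *Cpox* beside *Alas2* was thus not particular to the embryonic-globin cluster. In CPM, relative to S4/S5, the level was 0.340 (0.30 to 0.384) for *Alas2*, 0.263 (0.227 to 0.304) for *Fech*, 0.197 (0.137 to 0.274) for *Urod*, 0.121 (0.0733 to 0.189) for *Alad* and 0.102 (0.0591 to 0.165) for *Cpox*. *Alas2* was 7.24 (6.44 to 8.12) per 1000 UMIs of *Hba-a1* and *Hba-a2*, below the 15.1 of S4/S5. *Uros* and *Ppox*, at 0.265 (0.0843 to 0.634) and 0.110 (0.0348 to 0.263), were too sparse there to be placed. Without globin UMIs the ratio to S4/S5 was 0.574 (0.506 to 0.649) for *Alas2*, 0.485 (0.418 to 0.560) for *Fech*, 0.369 (0.257 to 0.514) for *Urod*, 0.243 (0.145 to 0.381) for *Alad* and 0.217 (0.127 to 0.348) for *Cpox*. The intervals of *Alas2* and *Urod* then overlap. Against S3 on that scale *Alas2* was at 1.10 (0.969 to 1.25), within counting error.

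The genes around the pathway moved less uniformly from S0-low to S3, where 5.75% of all genes were at least 2-fold higher and 71.0% at least 2-fold lower. Of 7 genes for iron and glycine supply, 4 were higher and 0 lower, with a median of 3.20. *Slc25a37*, the mitochondrial iron importer mitoferrin 1, was highest at 26.0-fold (23.7 to 28.6), and *Steap3*, an endosomal ferrireductase, lowest at 0.507 (0.371 to 0.682). *Tfrc*, at 3.20-fold (2.92 to 3.51), encodes the CD71 protein by which the populations were drawn. *Abcb6*, a porphyrin transporter, was at 2.55-fold (2.06 to 3.16).

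Of 6 iron-sulfur cluster genes 0 were higher and 2 lower, with a median of 0.621. *Glrx5*, a glutaredoxin of cluster transfer, was highest at 1.85-fold (1.79 to 1.90), and *Hspa9*, the mitochondrial chaperone mortalin, lowest at 0.159 (0.142 to 0.178). Of 3 genes of ALAS turnover 0 were higher and 2 lower, with a median of 0.353. *Clpx*, the unfoldase that also activates ALAS, was at 0.554 (0.445 to 0.685) and *Clpp*, its protease partner, at 0.255 (0.218 to 0.297).

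Of the 5 genes of heme breakdown and export that were tested 2 were higher and 1 lower, with a median of 0.966. *Abcg2*, an exporter of porphyrins, was highest at 6.50-fold (5.87 to 7.22) and *Hmox2*, the constitutive heme oxygenase, lowest at 0.236 (0.170 to 0.320). *Flvcr1* is not analysed here. Of 4 genes of heme and iron sensing 1 was higher, *Eif2ak1*, the heme-regulated kinase that slows globin translation, at 5.27-fold (4.52 to 6.16), and 2 were lower. Their median was 0.793. *Aco1*, the iron regulatory protein 1, was lowest at 0.110 (0.0437 to 0.232), from 179 UMIs in S0-low to 10 in S3. Without globin UMIs the counts higher and lower became 6 and 0 for iron and glycine supply, 1 and 1 for iron-sulfur clusters, 0 and 1 for ALAS turnover, 3 and 1 for breakdown and export and 2 and 1 for sensing, where 10.7% of all genes were at least 2-fold higher and 49.0% at least 2-fold lower. The S0-low cells of named non-erythroid clusters enter these ratios, and their part in them was not tested.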

How the data were processed

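Cells of e13.5 fetal liver were profiled by CITE-seq in 1 cDNA library and 1 antibody library. Per the paper's methods and the submitters' processing notes, the authors mapped 10x 3′ reads to mm10 with Cell Ranger and deposited a table of raw UMI counts, taken before their quality filters, with a table of antibody counts. The matrix held 58606632 UMIs in 7863 cells (2510 to 38047 per cell, median 5707), and all cells had antibody counts.

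The limits of the methods were applied (300 to 5000 genes, no more than 9% mitochondrial UMIs). Doublets were called with Scrublet at an expected rate of 6% (128 cells, 1.63%). Antibody counts were put on a centered log ratio scale, each antibody over all cells. Ter119 was split by k-means into 3 classes (borders at 24.7 and 88.5 counts), and CD71 into 3 classes at low Ter119 (234 and 763) and 2 at high Ter119 (734). The lineage limit was 95.8 summed counts of 5 antibodies, the median plus 2 scaled median absolute deviations on the log scale. The 214 lineage-low cells with intermediate Ter119 and lower CD71 were in no population. The gates are rebuilt and may differ from those of the study.

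Levels are means over cells of CPM. Intervals (95%, counting error only) use effective counts, Poisson for levels and conditional binomial for ratios, and exact Clopper-Pearson for shares. The ratio intervals were tested only on simulated Poisson counts at the depths of S3 and S0-low cells, the error they assume. Spread between cells beyond counting was not part of that test. Clusters used log-normalized counts, 2000 variable genes without the members, 16 principal components, 30 neighbours and Leiden resolution 0.8, and 3 markers among the top 10 genes gave a name. The r over 24 groups used log2 of pooled CPM plus 10.

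The genes named in the text are the members, the 3 genes most like *Alas1* and *Alas2*, and the highest and lowest gene of each neighbour list, with *Tfrc* added after its value was seen. The results of 1 gene under this rule, and the counts of its list, are left out here. Members and lists were chosen with earlier results of these data known. Protein sequences were not used here. Scanpy 1.11.5 with igraph 0.11.9 and scikit-learn 1.9.0 was run in Python 3.11.15 with seed 7, statistics came from scipy 1.17.1 and numpy 2.4.6, tables from pandas 2.3.3 and plots from matplotlib 3.10.9.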

Additional observations from a re-analysis of the deposited data

How the results depend on the processing

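The count of 7 members at least 2-fold higher in S3 than in S0-low stayed at 7 under the 11 alternatives to the populations or the scale. It was also 7 with a limit of 1.5-fold and with no UMI minimum, but these only loosen the call and could not lower it. Of 253 alternative values of the 23 ratios past 2-fold, 0 changed direction and 233 stayed past 2-fold, and of 275 values of ratios under 2-fold 17 moved to the other side of 1, among them *Fech* and *Urod* at the last step without globin UMIs. The count from S0-low to S0-medium, 5, became 2 without named non-erythroid clusters, where 1.21% of all genes were called, and 2 with pooled CPM. The count from S1 to S2, 4, became 1 in UMIs per cell, where 0.779% of all genes were called. The count from S2 to S3, 1, became 2 with log10 of antibody counts and 2 without globin UMIs, *Fech* joining in both. Without globin UMIs 4.90% of all genes were called at this step. The count of 4 lower in S4/S5 than in S3 became 2 without globin UMIs, where 8.03% of all genes were called. The shares of all genes with pooled CPM and with log10 of antibody counts were not computed. The *Alas1* share of S0-low, 42.1%, was 63.4% with log10 of antibody counts, 63.2% with the centered log ratio within each cell, 63.1% with Gaussian mixture classes, 50.2% without border cells, 59.7% with no lineage limit and 21.8% without named non-erythroid clusters. A lineage limit on the linear scale, added after the data were seen, gave 35.7%. S0-low held 638 to 1975 cells under these gates, and its share lay above that of S0-medium (10.7% to 26.3%) in each. The cause was not tested. With 1 library there is no replicate error, and *Alas1* after S0-low rests on 10 to 56 UMIs per population. No paired analysis was possible because the result comes from no test and there are no replicates.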
